A study of Mus musculus with 2 samples.

Results

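The developmental pluripotency associated (Dppa) genes were examined in RNA-seq of primordial germ cells (PGCs) of the mouse, from which eggs and sperm later form. The genes were Dppa2, Dppa3, Dppa4 and Dppa5a, chosen by their symbols, and each symbol matched 1 row, giving 4 of the 18877 rows of the expression table. The table held 1 group of 2 libraries, replicate 1 and replicate 2, which the study describes as biological repetitions. Both came from untreated C57BL6 embryos at embryonic day 9.5 (E9.5), and an antibody to SSEA1, a carbohydrate on the PGC surface, was used to isolate the cells. The methods name sorting by flow cytometry (with CD61, the product of Itgb3) or magnetic beads without saying which was used here, and they describe female embryos. No other stage or cell type was analysed here, so each value describes E9.5 PGCs alone and no test between groups was possible.

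Levels are given as TPM, a relative abundance in which reads are divided by gene length and then brought to the same sum in every library. Means are given ± SD over both libraries. Read numbers were recovered from the TPM and the exon lengths, and 95% intervals are exact Poisson intervals on those reads, which cover counting error only. Coordinates are on GRCm38 (mm10) with the GENCODE M21 annotation.

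Dppa3, also called Stella or Pgc7, is one of the earliest genes to mark specified PGCs. Its protein enters the nucleus and limits maintenance DNA methylation by displacing Uhrf1, and in the zygote it shields the maternal genome from demethylation. Dppa5a, also called Esg1, encodes a small KH-domain protein that binds RNA and is typical of embryonic stem (ES) cells and germ cells. Dppa2 and Dppa4 are linked genes whose SAP-domain proteins bind chromatin together, and in ES cells they can switch on Dux and the Zscan4 genes of the early embryo. The family name reflects a shared expression pattern rather than 1 protein family.

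Each of these genes has near-identical copies in the genome, mostly processed pseudogenes, so the sequences that separate a gene from its copies bear on how its reads could be assigned. The longest coding exon of Dppa5a was compared with Dppa5c, an unprocessed copy on the same chromosome, and with Gm6083, a processed pseudogene. The sequences below are those of the annotated transcripts, 5′ to 3′ on the sense strand, and capitals mark the bases that differ between the Dppa gene and a copy shown with it. In Dppa5a the capitals mark differences from either copy.
Dppa5a, chr9:78367721-78367903, minus strand: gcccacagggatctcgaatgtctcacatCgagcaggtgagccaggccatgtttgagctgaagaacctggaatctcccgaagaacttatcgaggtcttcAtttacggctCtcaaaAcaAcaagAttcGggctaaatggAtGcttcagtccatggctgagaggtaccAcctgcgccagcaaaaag
Dppa5c, chr9:78272198-78272375, plus strand: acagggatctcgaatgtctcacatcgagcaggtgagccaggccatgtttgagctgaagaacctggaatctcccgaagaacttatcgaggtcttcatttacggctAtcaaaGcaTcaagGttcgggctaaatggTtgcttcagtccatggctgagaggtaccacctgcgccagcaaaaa
Gm6083, chr5:29538268-29538450, plus strand: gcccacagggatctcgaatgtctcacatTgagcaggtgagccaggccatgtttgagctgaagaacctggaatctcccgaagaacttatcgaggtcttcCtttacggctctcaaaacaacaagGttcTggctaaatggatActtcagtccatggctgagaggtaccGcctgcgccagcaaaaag
Dppa5c differed from Dppa5a at 5 of 178 bases and Gm6083 at 6 of 183. Dppa5b, which lies beside Dppa5c, had the same bases as Dppa5c over this stretch, and their whole annotated transcripts of 348 bases differed at 0 positions. Over the aligned transcript the longest run without a difference between Dppa5a and Dppa5c was 104 bases, so 0 of 199 windows of 150 bases in Dppa5c matched Dppa5a throughout.

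For Dppa3, the only copy with a row was Dppa3-ps, a transcribed processed pseudogene on chromosome X.
Dppa3, chr6:122628577-122628809, plus strand: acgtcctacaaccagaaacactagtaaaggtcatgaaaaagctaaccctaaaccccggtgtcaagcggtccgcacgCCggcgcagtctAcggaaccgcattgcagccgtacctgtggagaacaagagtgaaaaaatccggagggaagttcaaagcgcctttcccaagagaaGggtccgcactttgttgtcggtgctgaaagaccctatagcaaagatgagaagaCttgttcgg
Dppa3-ps, chrX:37625779-37626011, minus strand: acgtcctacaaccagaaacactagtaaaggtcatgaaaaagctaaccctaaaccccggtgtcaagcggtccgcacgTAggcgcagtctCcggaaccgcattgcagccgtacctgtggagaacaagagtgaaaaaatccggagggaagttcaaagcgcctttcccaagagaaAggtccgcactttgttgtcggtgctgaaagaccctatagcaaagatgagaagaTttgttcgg
These coding-exon stretches differed at 5 of 233 bases. The longest identical run was 86 bases, and 0 of 302 windows of 150 bases were shared. A closer copy was found for Dppa2, the processed pseudogene Gm9788 on chromosome 19.
Dppa2, chr16:48315662-48315917, plus strand: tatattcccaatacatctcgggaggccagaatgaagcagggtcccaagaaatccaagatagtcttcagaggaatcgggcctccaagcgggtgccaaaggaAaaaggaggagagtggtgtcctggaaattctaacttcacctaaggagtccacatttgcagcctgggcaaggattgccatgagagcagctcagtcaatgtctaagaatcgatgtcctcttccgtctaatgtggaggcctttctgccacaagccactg
Gm9788, chr19:41460188-41460443, plus strand: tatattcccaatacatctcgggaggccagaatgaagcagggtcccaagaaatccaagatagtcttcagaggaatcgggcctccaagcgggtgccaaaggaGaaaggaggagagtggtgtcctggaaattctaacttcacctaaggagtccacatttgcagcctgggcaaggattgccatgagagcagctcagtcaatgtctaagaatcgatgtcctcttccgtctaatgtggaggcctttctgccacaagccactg
Here the stretches differed at 1 of 256 bases, and the longest identical run of the aligned transcripts was 381 bases. Of the 757 windows of 150 bases in Gm9788, 437 were identical to Dppa2. For Dppa4, whose copy Gm14058 lies on chromosome 2, 168 of 586 windows were identical. Dppa2 and Dppa4 therefore shared whole windows of this length with a copy that had a row, whereas Dppa3 shared 0 with Dppa3-ps and Dppa5a shared 0 with each of the 8 copies that had a row.

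Dppa5a, the KH-domain gene, had the highest level of the 4 genes. It measured 20839 TPM in replicate 1 (95% interval 20722 to 20956, 122621 reads) and 21320 TPM in replicate 2 (21121 to 21520, 44120 reads). The mean was 21079 TPM ± 339.9 (SD, n = 2), and Dppa5a ranked 3 among all rows in both libraries. By mean TPM the only protein-coding row above it was mt-Cytb, a subunit gene of mitochondrial complex III, at 32566 and 25420 TPM, which made Dppa5a the highest nuclear protein-coding row. The top row by mean TPM, Gm12338, was a processed pseudogene at 26689 and 33928 TPM, below mt-Cytb in replicate 1 and above it in replicate 2. Dppa5a took 2.09% and 2.13% of the summed TPM and 0.771% and 0.808% of the recovered reads. By reads, where gene length is not divided out, it ranked 5 in both libraries. The gene (ENSMUSG00000060461.5) lies at chr9:78367052-78368177 on the minus strand and has 3 exons with 619 exonic bases that encode 118 codons, so a high level per length was carried by a short transcript. In bulk samples, fewer cells of a type and less RNA per cell cannot be told apart, and this holds for every level given here.

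Dppa3 (Stella) was next. It measured 5013 TPM in replicate 1 (4965 to 5061, 42505 reads) and 5075 TPM in replicate 2 (4995 to 5157, 15135 reads). The mean was 5044 TPM ± 44.1 (SD, n = 2), with ranks of 19 and 23 among all rows, and Dppa3 ranked 12 among protein-coding rows by mean TPM. By reads it ranked 35 and 34, lower than by TPM. It took 0.502% and 0.508% of the summed TPM. The gene (ENSMUSG00000046323.8) lies at chr6:122626410-122630272 on the plus strand, and its 2 protein-coding transcripts encode 150 and 140 codons.

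Dppa4 and Dppa2, the chromatin-binding pair, were far lower than the other two. Dppa4 measured 160 TPM in replicate 1 (154 to 167, 2334 reads) and 147 TPM in replicate 2 (137 to 158, 754 reads), with ranks of 888 and 917. Its mean was 154 TPM ± 9.22 (SD, n = 2). Dppa2 measured 28.2 TPM in replicate 1 (25.9 to 30.8, 523 reads) and 33.2 TPM in replicate 2 (28.9 to 37.9, 216 reads), with ranks of 2819 and 2494. Its mean was 30.7 TPM ± 3.48 (SD, n = 2), which 14.1% of all rows exceeded. Both genes were far above the limit that a count of 0 allows, 3 reads, which was 0.206 and 0.585 TPM for Dppa4 and 0.162 and 0.461 TPM for Dppa2. Dppa4 (ENSMUSG00000058550.15) lies at chr16:48283733-48294237 and Dppa2 (ENSMUSG00000072419.5) at chr16:48303908-48319723, both on the plus strand, with their starts 20.2 kb apart. For these genes the M21 exon length did not return whole reads, and the lengths that did were 1534 bases for Dppa4 and 1948 bases for Dppa2. The length of 1948 bases is that of the shorter annotated Dppa2 transcript. The length of 1534 bases matches none of the annotated Dppa4 transcripts, which have 1271, 1479 and 408 bases.

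**Figure D1:**
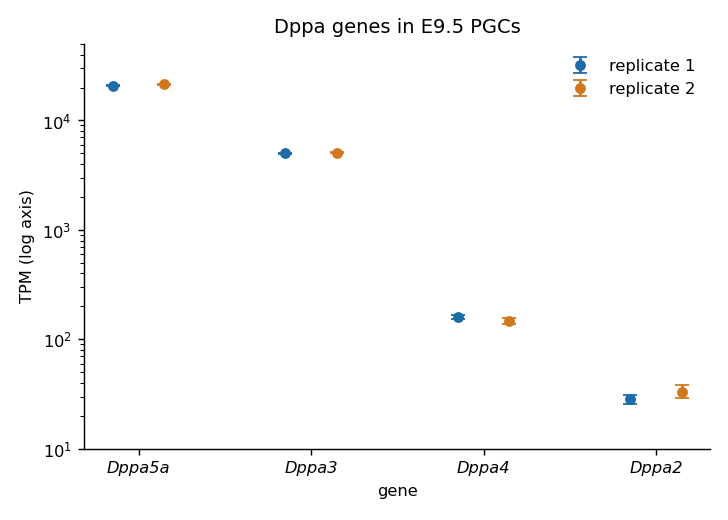
TPM of each Dppa gene (log axis) in replicate 1 and replicate 2, with bars for the exact 95% Poisson interval on the recovered reads. Both libraries gave the order Dppa5a, Dppa3, Dppa4 and Dppa2, from 21079 to 30.7 TPM on average, and no gene's points overlapped those of another.

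The order was Dppa5a above Dppa3 above Dppa4 above Dppa2 in both libraries. Per length, Dppa5a was 4.16-fold and 4.20-fold higher than Dppa3. Dppa3 was 31.3-fold and 34.5-fold higher than Dppa4, the widest of the 3 steps. Dppa4 was 5.67-fold and 4.43-fold higher than Dppa2. On the log2(TPM + 1) scale the steps were 2.06 ± 0.011, 5.03 ± 0.10 and 2.29 ± 0.24 (SD, n = 2), so each step was larger than its spread between libraries and no neighbours in the order were tied. From first to last, Dppa5a was 738-fold and 643-fold higher than Dppa2. Dppa5a alone made up 80.0% and 80.2% of the summed TPM of the 4 genes, which together came to 26040 and 26575 TPM.

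The libraries differed in depth by a wide margin but gave near-equal levels for these genes. Of the 4 genes, 0 differed by more than 2-fold between the libraries on the log2(TPM + 1) scale, against 10.2% of all rows (1924 of 18877), a share that depends on level. Among rows within 2-fold of the mean TPM of Dppa2 it was 3.16% of 2313 rows and for Dppa4 0.435% of 919, while for Dppa3 it was 0 of 44 and for Dppa5a 0 of 7. Read against rows of like level, a count of 0 among these genes is therefore near the background. The log2 ratio of replicate 2 over replicate 1 was 0.033 for Dppa5a (0.017 to 0.049), 0.018 for Dppa3 (-0.0090 to 0.045), -0.12 for Dppa4 (-0.24 to -0.0035) and 0.23 for Dppa2 (-0.0036 to 0.46), with exact 95% intervals for counting error. The intervals of Dppa5a and Dppa4 leave out 0, and those of Dppa3 and Dppa2 include it. The median absolute difference of rows at like level, on log2(TPM + 1), was 0.083 for Dppa5a, 0.14 for Dppa3, 0.13 for Dppa4 and 0.20 for Dppa2. Dppa5a and Dppa3 varied less than these medians, Dppa4 was close to its own, and Dppa2 was slightly above.

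The genes nearest to each Dppa gene in level were named by their rank among protein-coding rows, and likeness here is in level alone. Among the rows below Dppa5a was Cox7c, a subunit of cytochrome c oxidase, at 9229 and 11556 TPM. By mean TPM, Rpl23a (5668 and 6247 TPM) and Rps27l (4908 and 5636 TPM) lay above Dppa3. Usmg5 (4517 and 5188 TPM) and Rpl35 (3890 and 4534 TPM) lay below it. Rps27l was below Dppa3 in replicate 1 and Usmg5 above it in replicate 2, so neither could be ranked against Dppa3. Rpl23a and Rpl35 are ribosomal proteins of the large subunit, Rps27l is a ribosomal protein paralogue, and Usmg5 belongs to mitochondrial ATP synthase. All 4 rows around Dppa3 were lower than Dppa5a in both libraries.
Dppa4 had the level of Timm8a1 (162 and 145 TPM), Sugt1 (155 and 152 TPM), Rrm2 (151 and 156 TPM) and Cox17 (146 and 159 TPM), genes of mitochondrial import, the kinetochore, deoxynucleotide synthesis and copper delivery. Dppa2 lay beside Nckap1 (37.8 and 23.7 TPM), Fbxo15 (30.1 and 31.3 TPM), Adsl (36.2 and 25.2 TPM) and Slc9a3r1 (32.7 and 28.6 TPM), genes of actin regulation, pluripotent cells, purine synthesis and membrane scaffolding. Fbxo15, an F-box gene used as a reporter of pluripotent cells, was also in the list of ES cell associated genes below. Its level and that of Dppa2 could not be ranked, since the ratio of Dppa2 over Fbxo15 was 0.939 in replicate 1 and 1.06 in replicate 2.

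Copies of the Dppa genes were sought among all annotated transcripts, as matches of at least 100 bases at 90% identity or more. Dppa5a had 10 such genes, of which 8 had a row and 7 of these were pseudogenes. Those 7 held 1273 reads in replicate 1 and 520 in replicate 2, or 1.04% and 1.18% of the reads of Dppa5a. Reads of this number could move the level of Dppa5a only slightly, from 14.36 to 14.38 on the log2(TPM + 1) scale when added to it. Reads that the counting may have dropped cannot be seen in this way. The highest pseudogene was Gm15310, at 217 and 223 TPM (767 and 277 reads). It lies on the minus strand of chromosome 16 within Pigp, a gene of glycosylphosphatidylinositol anchor synthesis, which measured 196 and 180 TPM. The row of Pigp held 3510 and 1134 reads, or 2.86% and 2.57% of the reads of Dppa5a, which were not added above. Pigp itself carries 417 bases that match Dppa5a at 95.9% identity, so reads of Gm15310 and Pigp share a locus. How the counting divided them was not tested.

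Dppa5b and Dppa5c have identical annotated transcripts, so reads that lie wholly within them cannot be told apart. Bases outside these transcripts were not compared. The values below describe how the table divided the reads and were not taken as a level of either gene. The row of Dppa5c held 114 TPM in replicate 1 (103 to 126, 377 reads) and 159 TPM in replicate 2 (137 to 184, 185 reads). The row of Dppa5b held 5.74 TPM (3.46 to 8.97, 19 reads) and 13.8 TPM (7.86 to 22.3, 16 reads). Most of these reads thus stood in the row of Dppa5c in both libraries. Both are annotated as unprocessed pseudogenes of 3 exons each, 26.4 kb apart by their starts, and how the authors' counting treated reads that match both places is not stated. The remaining pseudogenes of Dppa5a were low, with Gm6798 at 17.8 and 16.6 TPM, Gm6083 at 9.43 and 4.19, Gm11649 at 4.77 and 12.0 and Gm5250 at 0 and 1.86.

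Reads at the copies of the other genes were few. Dppa3-ps measured 19.1 and 14.6 TPM (82 and 22 reads), which was 0.193% and 0.145% of the reads of Dppa3. Gm14058, 98.9% identical to Dppa4 over 735 bases, measured 6.44 and 10.2 TPM (45 and 25 reads), or 1.93% and 3.32% of the reads of Dppa4. Gm9788, 99.3% identical to Dppa2 over 906 bases, measured 0.813 and 1.98 TPM (7 and 6 reads), or 1.34% and 2.78% of the reads of Dppa2. In both libraries each of these copies stayed far below its gene. Dppa2 had 6 copies in all, Dppa3 3 and Dppa4 2, and those without a row were not analysed here.

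**Figure D2:**
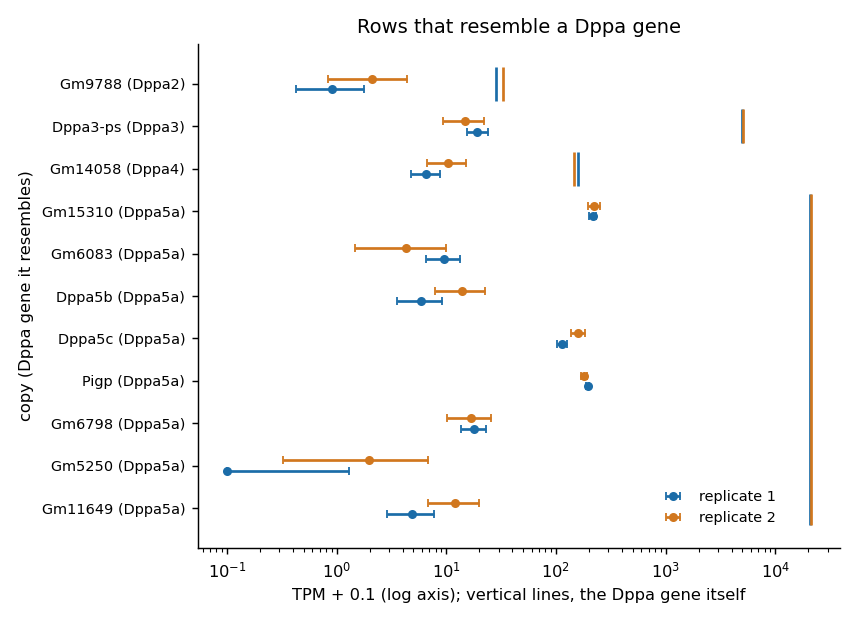
TPM + 0.1 (log axis) of the 11 rows whose transcripts resemble a Dppa gene, with exact 95% Poisson intervals, in replicate 1 (blue) and replicate 2 (orange). Vertical lines mark the Dppa gene itself, and the copies of Dppa5a sit from 223 TPM down to 0 against its line at 21079 TPM on average.

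Genes that start within 250 kb of a Dppa gene were examined next, and no annotated gene overlapped any of the 4 on either strand. Around Dppa5a there were 16 rows, of which 10 reached 1 TPM in both libraries, as did 60.0% of all rows (11329 of 18877). The nearest was Ooep, 10.5 kb away on the same strand, a KH-domain gene of the subcortical maternal complex of the oocyte. Ooep measured 39.4 and 40.6 TPM, so Dppa5a was 529-fold and 525-fold higher. On that side followed Ddx43, an RNA helicase gene, at 1.86 and 1.63 TPM, and the antisense gene 4930542C12Rik with 0 reads, which allows up to 0.262 and 0.746 TPM. On the other side lay Gm10639, at 0 and 1.11 TPM, before Dppa5c and Dppa5b. The highest row was Gm26377, a miRNA gene of 108 bases, at 19320 and 20442 TPM. It lies within Eef1a1, the translation elongation factor gene at 1936 and 1969 TPM, on the same strand, so reads of Gm26377 and Eef1a1 cannot be told apart.

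Around Dppa3 there were 14 rows, of which 10 reached 1 TPM in both libraries, and as around Dppa5a this share was not far from that of all rows. Gdf3, a TGF-beta family ligand gene 16.3 kb away, measured 15.8 and 9.63 TPM. Nanog, the homeobox pluripotency gene 81.1 kb away on the other side, measured 26.4 and 20.9 TPM. Dppa3 exceeded Gdf3 317-fold and 527-fold and Nanog 190-fold and 242-fold, so the level of Dppa3 was not shared by these neighbours. Between them and around them lay Apobec1, an RNA editing enzyme gene, at 0.779 and 1.33 TPM, and the pseudogenes Gm10420 (6.80 and 7.12 TPM), Gm10224 (14.0 and 20.4 TPM) and Gm8459 (0 reads, which allows up to 0.415 and 1.18 TPM). The highest neighbour was the pseudogene Gm8430, at 150 and 209 TPM.

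Around Dppa4 and Dppa2 there were 3 other rows for each, counting the partner, and all reached 1 TPM in both libraries. Morc1, an ATPase gene required for transposon silencing in male germ cells, lies beyond Dppa2 and measured 57.3 and 56.1 TPM. Dppa4 exceeded Morc1 2.79-fold and 2.62-fold, and Dppa2 was at 0.493 and 0.591 of the level of Morc1. The pseudogene Gm7204, before Dppa4, measured 12.1 and 15.0 TPM. Levels in this window thus spanned a narrower range than around Dppa5a or Dppa3.

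**Figure D3:**
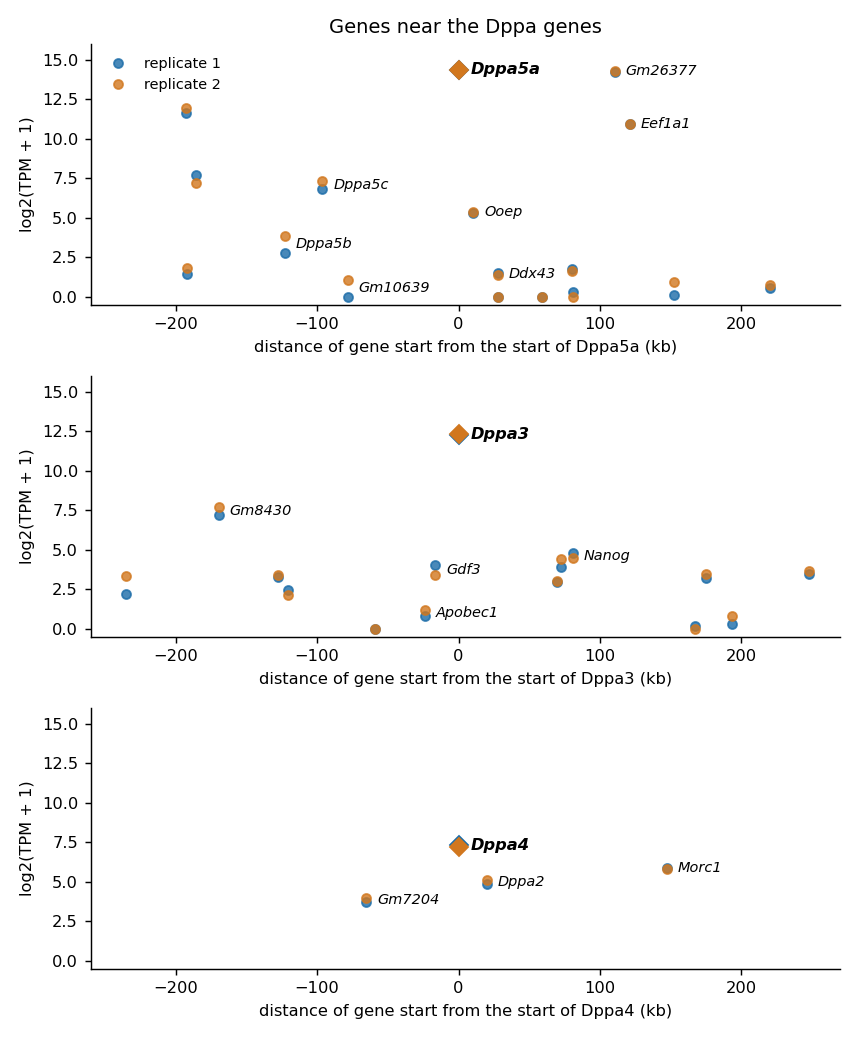
Level, as log2(TPM + 1), of each row that starts within 250 kb of Dppa5a (top), Dppa3 (middle) or Dppa4 (bottom) against the distance between starts in kb, with diamonds for the Dppa gene and blue and orange for replicate 1 and replicate 2. Dppa3 stands above each of its 14 neighbours, Gm26377 comes nearest to Dppa5a, and Dppa4 exceeds Dppa2 and Morc1 by smaller steps.

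Lists of related genes were summarised by their median on log2(TPM + 1), beside 1.89 and 1.85 over all rows. Counts of genes that reached 1 TPM in both libraries are to be read beside the 60.0% of all rows that did so. With Dppa2, Dppa4 and Dppa5a, other genes were first described as ES cell associated transcripts, and 5 of 8 of these had a row. Their median was 4.96 and 4.46, and all 5 reached 1 TPM in both libraries. L1td1, an RNA-binding protein gene, was the highest at 117 and 94.8 TPM, and Dppa4 exceeded it 1.37-fold and 1.55-fold. Sox15, an HMG-box gene, measured 44.2 and 20.1 TPM (362 and 58 reads) and was the only one of the 5 that differed by more than 2-fold between the libraries. Fbxo15, Nanog and Gdf3 are given above. All 5 lay below Dppa5a, Dppa3 and Dppa4 in both libraries.

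Genes of the programme that Dppa2 and Dppa4 can activate in ES cells, among them Dux and the Zscan4 genes, were listed as 21 symbols, of which 0 had a row, and they were not analysed here. Of 2 genes whose promoters are bound by Dppa2 in ES cells, only Syce1 had a row. Syce1, a component of the synaptonemal complex, measured 35.9 and 26.6 TPM, close to Dppa2.

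DNA methylation genes around Dppa3 had a median of 1.95 and 1.99, near that of all rows, and 9 of the 12 with a row reached 1 TPM in both libraries, which is also near the share of all rows. The highest were Trim28, a corepressor that helps keep imprints methylated, at 68.6 and 61.1 TPM, Ipo5, an importin, at 50.05 and 40.1 TPM, and Dnmt1, the maintenance methyltransferase, at 19.1 and 18.9 TPM. The lowest were Zfp57, Tet2 and Dnmt3b, at 0.167 and 0.0790, 0.437 and 0.496, and 0.474 and 0.879 TPM. Zfp57 binds imprinted regions, Tet2 oxidises methylcytosine and Dnmt3b methylates DNA de novo. Uhrf1, which brings Dnmt1 to replicating DNA and is the partner that Dppa3 displaces, measured 2.15 TPM (87 reads) and 2.25 TPM (32 reads). Uhrf1 falls outside the rule for naming genes and was named after its values were seen. Per length, Dppa3 exceeded Uhrf1 2333-fold and 2258-fold and Dnmt1 262-fold and 269-fold.

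The KH-domain relatives of Dppa5a and the oocyte complex had a row for 5 of 9 genes, with a median of 2.92 and 2.64. After Ooep came Khdc1a at 6.56 and 7.98 TPM, Khdc1c at 6.65 and 5.23 TPM, Tle6 at 5.76 and 4.65 TPM and Zbed3 at 2.64 and 3.49 TPM. Khdc1a and Khdc1c are KH-domain genes, and Tle6 and Zbed3 belong to the maternal complex. None of these 5 reached the level of Dppa4, and Ooep alone exceeded Dppa2 in both libraries.

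Pluripotency factors had a median of 4.77 and 4.46, and all 11 with a row reached 1 TPM in both libraries. Zfp42 (276 and 272 TPM), Sox2 (106 and 146 TPM) and Utf1 (51.5 and 52.7 TPM) were the highest, all of them transcriptional regulators. Zfp42 exceeded Dppa4 1.72-fold and 1.85-fold, and Dppa5a exceeded Zfp42 75.5-fold and 78.4-fold. The lowest were Pou5f1, the gene of Oct4, at 1.54 and 1.46 TPM, Klf4 at 2.10 and 1.18 TPM and Tfcp2l1 at 7.35 and 5.99 TPM. Each of these 3 transcription factor genes lay below Dppa2. The values of Pou5f1 rest on 33 and 11 reads. Copies of Pou5f1 were not sought here, so its values describe how the table counted that row.

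The label of PGCs was checked against 12 PGC genes, all of which had a row. Their median was 3.66 and 3.68, and 11 of 12 reached 1 TPM in both libraries, against 60.0% of all rows. The highest were Ifitm1 (2002 and 1905 TPM), Ifitm3 (1518 and 1572 TPM) and Nanos3 (473 and 453 TPM). Ifitm1 and Ifitm3 are interferon-induced membrane protein genes of early PGCs, and Nanos3 encodes an RNA-binding protein that PGCs need to survive. Dppa3 exceeded Ifitm1 2.50-fold and 2.66-fold and Nanos3 10.6-fold and 11.2-fold, and Dppa5a exceeded Ifitm1 10.4-fold and 11.2-fold. The lowest were Fut4, Itgb3 and Prdm1. Fut4, a fucosyltransferase gene, had 0 and 2 reads. Itgb3, an integrin gene, measured 6.01 and 6.84 TPM, and Prdm1, a repressor that specifies PGCs, measured 7.84 and 6.11 TPM.

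**Figure D4:**
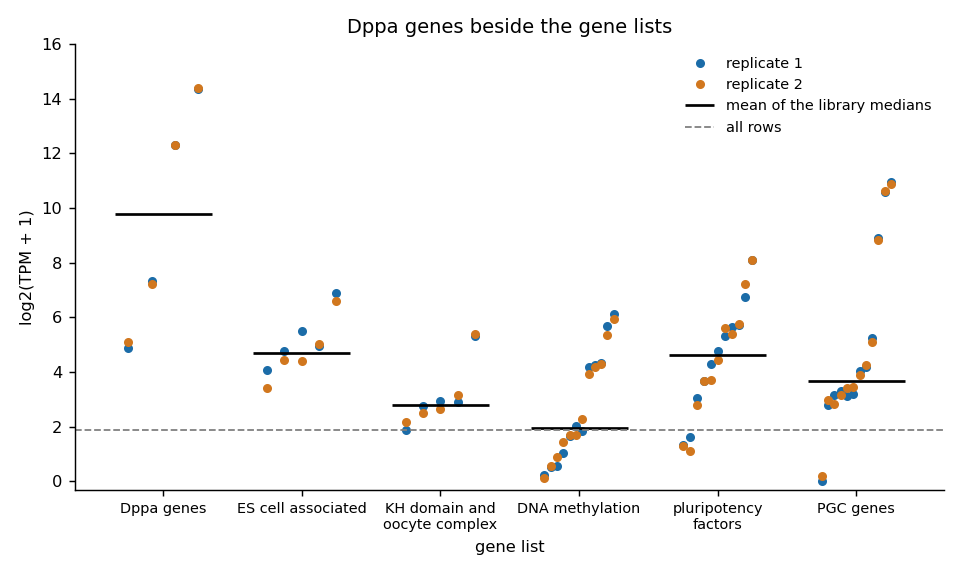
Level, as log2(TPM + 1), of each gene with a row in 6 lists, in replicate 1 (blue) and replicate 2 (orange), with a black line for the mean of the library medians and a dashed line for the median of all rows. The upper pair of Dppa genes, Dppa3 and Dppa5a, lies above every gene of the other lists, while Dppa4 and Dppa2 lie within their range.

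The recovered depth was 15912466 reads in replicate 1 and 5458695 in replicate 2, and 96.7% and 95.8% of the values under 50 reads came within 0.02 of a whole number. In replicate 1 this share was 80.9% on chromosome 16, where Dppa2 and Dppa4 lie, and 63.2% to 69.9% on chromosomes 17 to 19, against 99.1% to 100% on the other chromosomes. Markers of other cells were present beside the Dppa genes. Erythroid genes had a row for 6 of 8 and summed to 3983 and 3765 TPM, led by the embryonic globin Hba-x at 2331 and 2065 TPM, which is below Dppa3 in both libraries, whereas Klf1, an erythroid transcription factor, was at 0.275 and 1.56 TPM. Endothelial, macrophage, mesenchyme, gut or visceral endoderm and neural lists summed to between 1.01 and 19.4 TPM in each library. The highest row by mean TPM was Emcn (109 and 0 reads) for endothelial and Fcer1g (91 and 18 reads) for macrophage. For mesenchyme it was Col3a1 (99 and 46 reads). For gut or visceral endoderm it was Rbp4 (16 and 25 reads) and for neural Pax6 (395 and 139 reads). Foxa1 and Lum had 0 reads in both libraries. The part of other cells in the levels of the Dppa genes was not tested. The Y-linked Ddx3y had 362 and 93 reads (7.32 and 5.35 TPM) and Uty had 137 and 37, in libraries whose embryos the methods describe as female.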

How the data were processed

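The authors aligned reads to mm10 with Hisat2, counted them per gene with featureCounts and deposited 1 table of TPM for both libraries; the submitters' processing notes also name Bowtie2, RSEM, DESeq2 and R 3.4.2, with no role. The treatment of reads that match several places, strand use and the annotation release are not given in the sources used here. The methods describe Smart-seq2 and the labels a different library kit, so the chemistry is uncertain. TPM is relative, so each value falls when other genes take up more of the sum.

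Symbols were matched to GENCODE M21 (18748 of 18877 rows). TPM times exonic length gave whole multiples of 1 amount per library, taken as 1 read (or read pair). For genes off whole reads, the nearest length giving whole reads within 0.005 in both libraries was used. Recovery was tested on simulated data with lengths at or near the annotated ones. That test does not cover the larger shifts fitted for Dppa2 (2447 to 1948 bases) and Dppa4 (1662 to 1534 bases). Levels are log2(TPM + 1), a scale that understates differences of low genes. Copies were found with blastn 2.17.0, and Python 3.11.15, numpy 2.4.6, pandas 2.3.3, scipy 1.17.1, Biopython 1.88 and matplotlib 3.10.9 were used.

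With 1 group of 2 libraries no test was run. The Dppa genes, the lists and the alternatives were chosen with earlier results of these data known. Named genes are the 4 Dppa genes, all rows of lists with up to 10 genes, the top 3 and bottom 3 by mean TPM of longer lists, the 3 nearest on each side and the highest within 250 kb, and the 2 protein-coding rows above and below each Dppa gene in level. Values of some single genes covered by this rule are left out here.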

Additional observations from a re-analysis of the deposited data

How the results depend on the processing

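No alternative reversed the order of the Dppa genes, but another pseudocount, another scaling or the removal of other genes could not do so within a library. Of 46 values under the alternatives, ranks and left-out replicates aside, 30 stayed within the spread between the libraries. All ranks moved by more than the spread when taken among protein-coding rows or by reads. Among protein-coding rows a rank could only stay or come nearer the top, because other rows were left out. Dppa5a ranked 3 in both libraries, so any change in its rank counted as a move. With mitochondrial genes and genes under 200 exonic bases left out, levels on the log2(TPM + 1) scale rose together, to 14.69 for Dppa5a, 12.63 for Dppa3, 7.59 for Dppa4 and 5.30 for Dppa2, and list medians to 2.22 (DNA methylation genes), 3.06 (KH-domain and oocyte complex genes), 4.93 (pluripotency factors) and 3.98 (PGC genes), since the same total is shared by fewer genes. A pseudocount of 0.1 gave medians of 1.58 for DNA methylation genes, 2.57 for KH-domain and oocyte complex genes and 3.56 for PGC genes. Rows with a mean of at least 1 TPM alone gave 4.06 for DNA methylation genes and 3.97 for PGC genes, since low genes leave the list. With the M21 exonic length in place of the length that gave whole reads, an alternative chosen after seeing the data, Dppa2 was at 4.66, Dppa4 at 7.16 and Dppa3 above Dppa4 by 5.14. Without either replicate, Dppa5a ranged from 14.35 to 14.38, Dppa3 from 12.29 to 12.31, Dppa4 from 7.21 to 7.33 and Dppa2 from 4.87 to 5.09. No row stands for the list of Dux and Zscan4 genes, so no alternative was run for it. The share of rows past 2-fold between the libraries was 10.3% at a mean of at least 1 TPM and 23.7% with a pseudocount of 0.1. No paired analysis was possible because there is 1 group and no test. Values resting on few reads, as at several copies, are limited by depth, and 2 libraries give a spread but no test.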
